A study of Mus musculus with 2 samples.

Results

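Matrix metalloproteinases (MMP), their tissue inhibitors (TIMP) and the related surface protease Adam8 were examined in adipose tissue macrophages (ATM) of mice with or without myeloid HIF-1α. The 10 genes were chosen by name, with earlier results of these data known. They were Mmp8, Mmp9, Mmp12, Mmp13, Mmp14, Mmp19, Timp1, Timp2, Timp3 and Adam8. Each matched 1 of the 20330 gene identifiers in the expression table. The KO library came from mice that were hMRP8cre+, Hif-1α fl/fl and ApoE-/-, and the WT library from mice that were hMRP8cre-, Hif-1α fl/fl and ApoE-/-, so by their labels both were ApoE-/- and both carried the floxed alleles. All mice were of the C57BL/6 strain and ate a high-fat diet for 12 weeks, which per the study's methods was begun at 4 weeks of age. The ATM were sorted from visceral fat with antibodies to CD11b and to the macrophage antigen encoded by Adgre1, and poly(A) RNA was sequenced from 1 library per genotype. The Cre was driven by the human MRP8 (S100A8) promoter, which is active in myeloid cells at large and not in macrophages alone. How many animals went into each library is not given in the sources used here.

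With a single library per genotype there is no replicate error, no test was possible, and every difference given here is a difference between these libraries. Levels are in FPKM, a fragment number per unit of transcript length and of sequencing depth, and differences are log2(FPKM + 1), KO minus WT, which understates the change of low genes. A gene was tested, in the sense of entering the counts, when it had at least 1 FPKM in at least 1 library, and a difference of 3-fold or more on that scale was called higher or lower. The FPKM value of a single fragment, read from the lowest recurring values, gave a depth near 5870000 fragments in the WT library and 7470000 in the KO library, and fragment numbers of a gene are estimates made with it. Intervals on them are exact Poisson intervals that cover counting error only, since PCR copies are not independent molecules. Markers of macrophages were high in both libraries, as 10 of them summed to 15264 FPKM in WT against 14591 in KO, 0 of them differed by 3-fold, and the sort genes Adgre1 (299 against 239 FPKM) and Itgam, which encodes part of CD11b (128 in each), were among them. Hif1a, the targeted gene, was at 30.4 FPKM in WT against 20.97 in KO, a value for the whole gene that does not resolve the deleted part. Apoe, which both groups are labelled as lacking, was still listed, with 94.3 FPKM in WT and 116.5 in KO, so this whole-gene value does not bear out that label, and the disrupted part of the gene was not analysed here. In bulk RNA of this kind fewer cells of a type and less RNA per cell cannot be told apart.

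MMPs are zinc proteases that cut collagens, elastin and other proteins of the extracellular matrix, and most are made as inactive proenzymes. TIMPs bind the active site of these enzymes and block it, so that the amount of active protease depends on both families. In obese fat, where adipocytes enlarge within a collagen-rich matrix, macrophages are among the sources of both. Mmp8 and Mmp13 are collagenases, Mmp9 is a gelatinase, Mmp12 is the macrophage elastase, Mmp14 is anchored in the membrane, Mmp19 is a secreted MMP that degrades basement membrane proteins, and Adam8 is a membrane-anchored metalloproteinase of leukocytes.

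Mmp8, Mmp12 and Mmp13 share a cluster of MMP genes. In the GENCODE annotation of GRCm38, which is a later build than the mm9 named in the submitters' processing notes, 10 MMP genes lie on chromosome 9 between 7272514 and 7699585, a span of 427 kb. Mmp13 (ENSMUSG00000050578) lies at 7272514 to 7283331, Mmp12 (ENSMUSG00000049723) at 7344381 to 7369499 and Mmp8 (ENSMUSG00000005800) at 7558456 to 7568485, all on the plus strand. The other 7 genes lie elsewhere, Timp2 and Adam8 on the minus strand and the rest on the plus strand. Mmp9 (ENSMUSG00000017737) is on chromosome 2 at 164940780 to 164955850, Mmp14 (ENSMUSG00000000957) on chromosome 14 at 54431612 to 54445364, and Mmp19 (ENSMUSG00000025355) on chromosome 10 at 128790910 to 128800824. Timp1 (ENSMUSG00000001131) is on chromosome X at 20870166 to 20874735, Timp2 (ENSMUSG00000017466) on chromosome 11 at 118301069 to 118355740, Timp3 (ENSMUSG00000020044) on chromosome 10 at 86300372 to 86349506 and Adam8 (ENSMUSG00000025473) on chromosome 7 at 139978932 to 139992562. Each is annotated as protein-coding.

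Promoter windows from RefSeq (GRCm38.p6, 250 bases before to 50 after the annotated start) were found for 8 of the 10 genes, in 9 windows, and Mmp9 and Mmp19 had none. They were searched for the AP-1 motif TGANTCA and for the HIF core ACGTG or GCGTG on both strands. The 3 windows below belong to the genes whose levels differed most between the libraries. Motif matches are in capitals and all other bases in lower case. For Mmp12 the second window is shown, which held a match. Its first window, at chr9:7344147-7344446, held no match to either motif and is not shown.
Mmp13, chr9:7272264-7272563, plus strand: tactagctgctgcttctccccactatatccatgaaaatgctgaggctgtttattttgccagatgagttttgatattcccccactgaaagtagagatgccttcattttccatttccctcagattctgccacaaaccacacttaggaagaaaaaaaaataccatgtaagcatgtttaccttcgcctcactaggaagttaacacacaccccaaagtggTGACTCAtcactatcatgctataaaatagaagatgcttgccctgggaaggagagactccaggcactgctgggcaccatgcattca
Mmp12, chr9:7347124-7347423, plus strand: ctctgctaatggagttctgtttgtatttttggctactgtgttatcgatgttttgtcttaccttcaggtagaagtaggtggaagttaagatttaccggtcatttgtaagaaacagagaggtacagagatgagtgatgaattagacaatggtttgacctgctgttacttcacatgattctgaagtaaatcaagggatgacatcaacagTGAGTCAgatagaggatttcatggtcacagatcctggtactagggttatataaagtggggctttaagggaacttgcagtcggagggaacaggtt
Timp1, chrX:20869916-20870215, plus strand: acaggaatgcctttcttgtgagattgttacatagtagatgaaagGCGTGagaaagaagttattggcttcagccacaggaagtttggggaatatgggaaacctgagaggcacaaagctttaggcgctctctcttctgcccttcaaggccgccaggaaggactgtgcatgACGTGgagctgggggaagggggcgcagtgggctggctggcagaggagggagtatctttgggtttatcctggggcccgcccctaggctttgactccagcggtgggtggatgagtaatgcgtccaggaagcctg
The AP-1 letters were found in Mmp13, as TGACTCA starting 35 bases before the start, and in the second window of Mmp12, as TGAGTCA starting 44 bases before it. None of the other 7 windows held them, and they occur in 7.81% of the 32817 windows of the same length over all genes. The HIF core occurred in Timp1, at 206 and 82 bases before the start, and in Timp2, Timp3 and Mmp14, 1 match each. It is a common run of letters, present in 43.8% of all windows. The windows of Mmp12, Mmp13 and Mmp8 had a GC content of 38.7% to 46.0%, whereas Timp2 and Timp3 were at 68.7% and 67.0%, against a median of 52.7% over all windows. These matches describe the letters in a window and not a bound site.

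Of the 10 genes, 8 were listed above 0 in WT and 9 in KO, and 9 were tested. Only Timp1 passed 3-fold, on the higher side, and 0 passed on the lower side, and Timp1 did not enter the counts under either stricter filter (1 FPKM in both libraries, or a mean of 5 FPKM), which left 0. At its level calls were frequent, since 25.3% of the genes with a mean of 2 to 5 FPKM were 3-fold higher. Over all 10297 genes tested, 13.6% were higher and 13.7% were lower at 3-fold, or 27.3% in either direction. At a 2-fold threshold Timp1 and Mmp13 were higher and Mmp12 was lower, 3 of the 9, where 23.1% of all genes were higher, 22.5% were lower and 45.6% were one or the other. For 6 of the 10 genes the FPKM values of the libraries were within 1.5-fold of each other. The share of all genes within 1.5-fold was not computed, so this count is not read as a trait of the 10. Fewer genes differed by 2-fold at higher levels, 26.8% at a mean of 20 to 50 FPKM and 7.81% at 100 to 1000. The median difference over the 9 tested was 0.34, against 0.03 over all genes tested, and it was 0.34 as well with Timp1 set against its detection floor in WT.

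**Figure D1:**
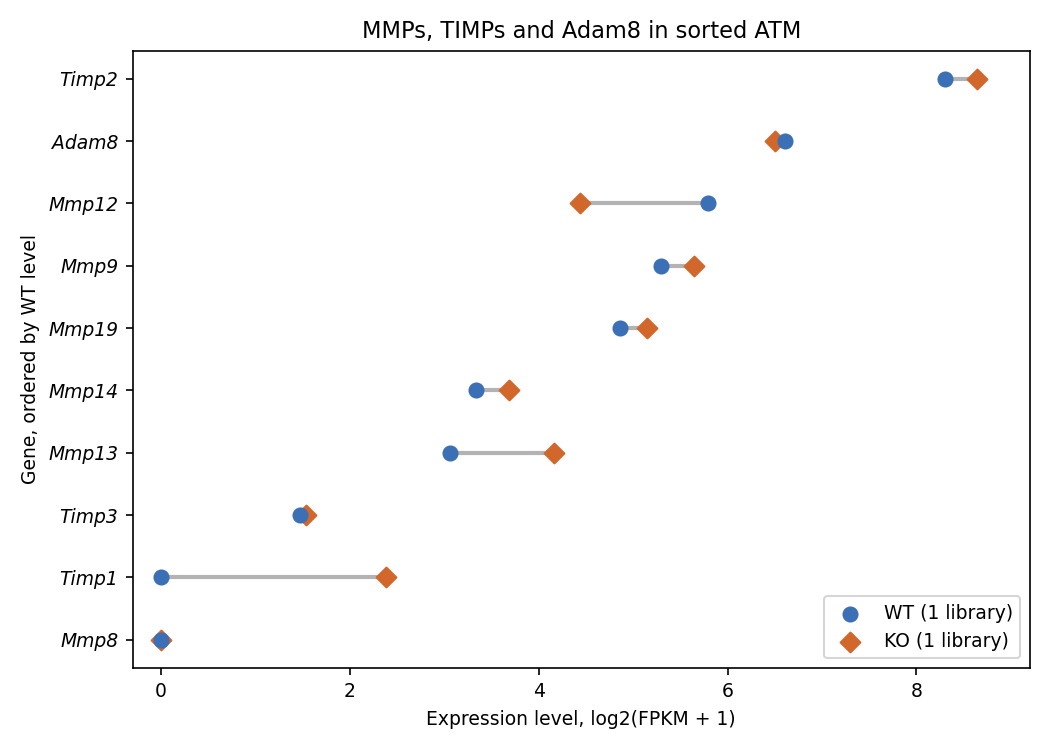
Level of each gene in the WT library (circles) and the KO library (diamonds), as log2(FPKM + 1), with genes ordered by their WT level and a grey line joining the libraries. Mmp12, Mmp13 and Timp1 have the longest lines, Mmp12 toward lower and the others toward higher values in KO, and Mmp8 sits at 0 in both.

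The order of the levels was headed by Timp2 and then Adam8 in both libraries. In WT they were followed by Mmp12, Mmp9, Mmp19, Mmp14, Mmp13 and Timp3, and in KO by Mmp9, Mmp19, Mmp12, Mmp13, Mmp14, Timp1 and Timp3. Mmp12 moved from the third place to the fifth, and Mmp13 passed Mmp14. Without replicates it cannot be said which neighbours in this order differ beyond their spread.

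The inhibitors were examined first. Timp2, which blocks MMPs and also takes part in the activation of pro-MMP2 by Mmp14, was at 314 FPKM in WT against 398 FPKM in KO. It ranked 277 of all 20330 genes by level in WT and 227 in KO, within the top 1.36% and 1.12%, and rested on an estimated 4084 and 6576 fragments. Its level was 1.27-fold higher in KO, a difference of 0.34. Among genes with a mean level of 100 to 1000 FPKM, 2.76% were 2-fold higher in KO, and Timp2 was not among them.

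Timp1, the inducible inhibitor whose main partner is pro-Mmp9, was listed at 0 in the WT library and had 4.20 FPKM in the KO library. The KO value corresponds to an estimated 27 fragments (95% interval 17.8 to 39.3), and 3 fragments of its transcript would have given 0.596 FPKM in WT. On the log2(FPKM + 1) scale the difference was 2.38, or 1.70 with WT set to that floor, and no fold is given, because a 0 in this table can be a failed estimate. Such zeros were frequent at that level, since of the 1581 genes with 2 to 5 FPKM in KO, 23.1% had a WT value of 0. The gene lies wholly inside Syn1, which runs on the opposite strand, with 0 shared exon bases. Syn1 was at 8.46 FPKM in WT against 3.49 in KO, and since no strand-marking step is described for the libraries, unspliced reads of the pair cannot be told apart.

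Timp3, a matrix-bound inhibitor that also blocks Adam17, was low and nearly level, at 1.78 FPKM in WT against 1.90 FPKM in KO, a difference of 0.06. These values rest on an estimated 26 fragments (95% interval 17.0 to 38.1) and 36 (25.2 to 49.8). It lies inside Syn3, a gene on the opposite strand that was listed at 0 in both libraries. Timp4, an inhibitor made chiefly by adipocytes and muscle, was listed at 0 in both. Thus Timp2 alone made up 99.4% of the summed level of Timp1, Timp2 and Timp3 in WT and 98.5% in KO.

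Mmp12 and Mmp13, neighbours in the cluster, differed in opposite directions. Mmp12, which cleaves elastin and is made chiefly by macrophages, was at 54.3 FPKM in WT against 20.7 FPKM in KO, 2.62-fold lower and a difference of -1.35. It went from rank 1341 to rank 3081 of all genes and its values came from about 420 WT and 204 KO fragments. The KO level was thus still well above the 0.305 FPKM that 3 fragments would give in that library. No strand-opposed signal was listed, as Mmp1b, which overlaps the end of Mmp12, was at 0 in both. Among the 1711 genes with a mean of 20 to 50 FPKM, 13.4% were 2-fold lower in KO and 6.43% were 3-fold lower, so a difference of this size was not rare at this level.

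Mmp13, the collagenase that cuts fibrillar collagens in the mouse, was at 7.33 FPKM in WT against 16.9 FPKM in KO. It was 2.30-fold higher, a difference of 1.10, with rank 5725 in WT and 3596 in KO on an estimated 115 and 337 fragments. Of the 1861 genes with a mean of 10 to 20 FPKM, 19.7% were 2-fold higher in KO. Within a library, the level of Mmp12 was 7.41 times that of Mmp13 in WT and 1.23 times in KO, a comparison that does not depend on how the libraries were scaled. Mmp8, the collagenase stored in neutrophil granules, was listed at 0 in both, where 3 fragments would correspond to 0.211 FPKM in WT and 0.166 in KO. As for Timp1, a 0 can be a failed estimate, so these values do not bound its level. Of the 9 cluster genes in the table, Mmp12 and Mmp13 were the 2 above 0, and Mmp1a, Mmp1b, Mmp3, Mmp7, Mmp8, Mmp10 and Mmp20 were listed at 0 in both libraries.

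**Figure D2:**
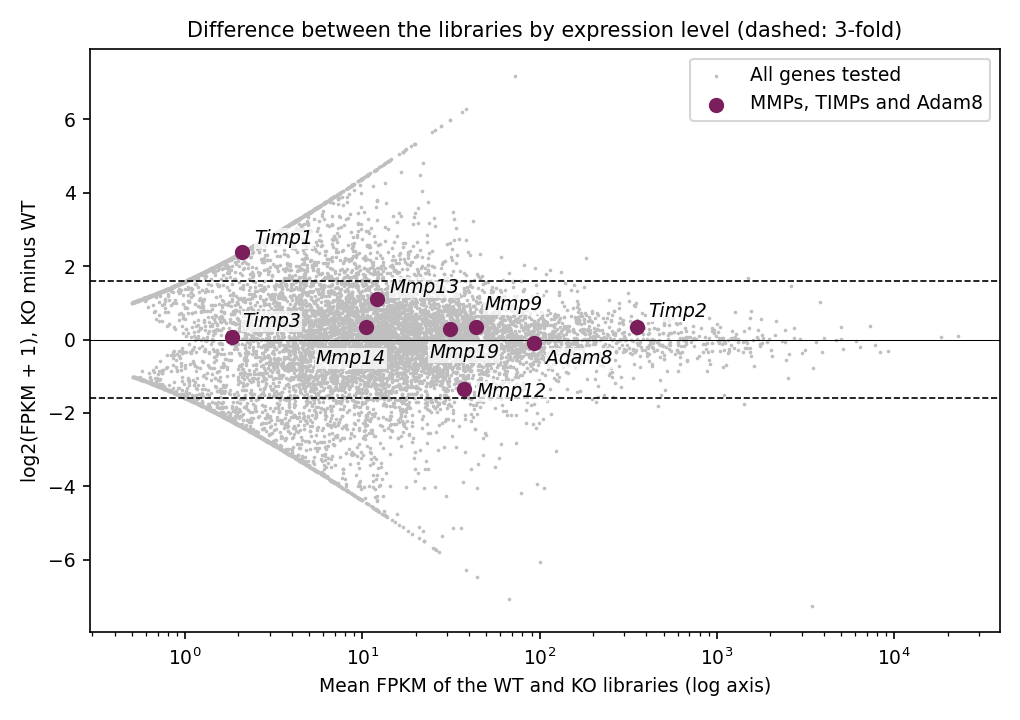
Difference between the libraries, log2(FPKM + 1) KO minus WT, against mean FPKM on a log axis, for the 10297 genes tested (grey) and the 9 MMP, TIMP and Adam8 genes among them (purple), with dashed lines at 3-fold. The spread of the grey points narrows with level, from 64.3% past 3-fold at a mean of 1 to 2 FPKM to 1.99% at 100 to 1000, and the curved edges are genes listed at 0 in 1 library, Timp1 among them.

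Mmp9, the gelatinase that degrades denatured and basement membrane collagens, was at 38.3 FPKM in WT against 48.9 FPKM in KO. The level was 1.27-fold higher in KO, the same ratio as for Timp2. The estimated 404 and 655 fragments lay above the medians of 128 and 153 over the genes listed above 0. Neutrophil markers were higher in KO as well. Their summed level was 158 FPKM in WT and 523 in KO, 7 of 10 were tested, 3 were higher and 0 were lower at 3-fold, and under either stricter filter 1 was higher and the median difference was 0.96 in place of 1.32. S100a9, a calcium-binding protein abundant in neutrophils and monocytes, was at 63.4 and 301 FPKM, and S100a8, its partner, was at 73.3 and 182. Together they held most of the summed level in each library. The receptor genes Csf3r (15.5 and 24.1 FPKM) and Cxcr2 (5.83 and 7.96) did not pass 3-fold. Of the defining granule genes, Camp, Ltf and Elane were listed at 0 in both, and Ngp and Mpo were at 0 in WT and at 2.61 and 2.29 FPKM in KO. The part of neutrophil RNA in the level of Mmp9 was not tested. Lcn2, the lipocalin that binds neutrophil MMP9, was at 0.960 FPKM in WT against 9.79 in KO.

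Mmp14 and Mmp19 also had near values in the libraries. Mmp14, the membrane-anchored collagenase, was at 9.07 FPKM in WT against 11.8 FPKM in KO, 1.31-fold higher and a difference of 0.35. Mmp19 was at 28.1 FPKM in WT against 34.3 FPKM in KO, 1.22-fold higher and a difference of 0.28. The end of Mmp19 overlaps Tmem198b on the opposite strand over 789 exon bases, and Tmem198b was at 77.4 FPKM in WT against 46.6 in KO, so reads of the pair cannot be told apart where the exons meet. Adam8, which sheds adhesion molecules from leukocytes, was at 96.3 FPKM in WT against 89.4 FPKM in KO, 1.08-fold lower (difference -0.11) and the second highest of the 10 in each library.

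Summing levels per length, the 7 proteases came to 233 FPKM in WT against 222 in KO, and the 3 TIMPs to 316 and 404. The ratio of proteases to TIMPs was 0.738 in WT and 0.550 in KO, and for the 6 MMPs without Adam8 it was 0.434 and 0.328. They are ratios of RNA levels, and the amounts of active protease and inhibitor were not measured. These ratios mainly set Adam8 and the MMPs against Timp2, and without Adam8 and Timp2 the ratio was 77.1 in WT and 21.8 in KO. In WT this last ratio rests on Timp3 alone (1.78 FPKM), since Timp1 was listed at 0, which can be a failed estimate. Its values are therefore not compared between the libraries. The total of the 6 MMPs was 137 FPKM in WT and 133 in KO, and its make-up differed. Mmp12 held 39.6% of it in WT and 15.6% in KO, Mmp9 held 28.0% and 36.9%, Mmp19 held 20.5% and 25.9%, and Mmp13 held 5.35% and 12.7%. Mmp12 was therefore the leading MMP by level in WT and Mmp9 in KO.

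**Figure D3:**
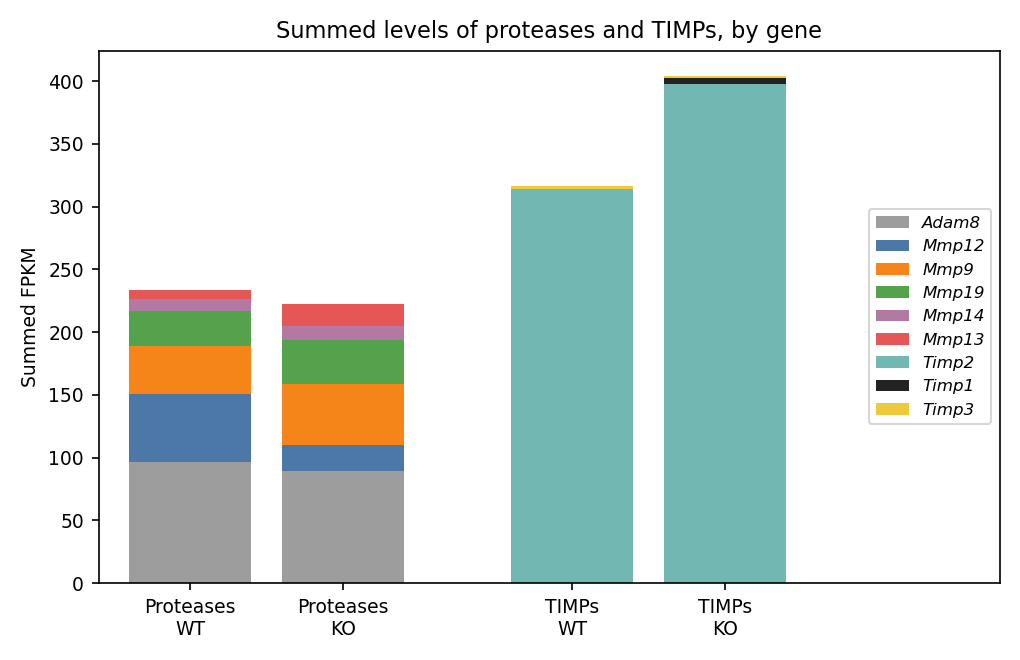
Summed FPKM of the proteases (left pair of bars) and of the TIMPs (right pair) in the WT and KO libraries, stacked by gene from 0, with 1 library per bar and no error. The protease bars are near in height at 233 and 222 FPKM with a smaller Mmp12 segment in KO, and the TIMP bars, at 316 and 404 FPKM, are almost all Timp2.

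The rest of the families was sparse. Of 17 further MMP and TIMP genes in the table, 11 were listed at 0 in both libraries, 5 were tested, 1 was higher and 1 was lower at 3-fold, and 0 were either under the stricter filters. Mmp2, the gelatinase typical of fibroblasts, was at 2.64 FPKM in WT and listed at 0 in KO. Mmp23 had 4.16 FPKM in KO and a WT value of 0. Mmp24 was at 3.16 FPKM in WT against 1.13 in KO. All 3 were below 5 FPKM, where a value of 0 in the other library was common. Of 21 other ADAM and ADAMTS genes, 13 were tested, 0 were higher and 1, Adamts4, was lower at 3-fold, with a median difference of 0.52, which was 0.24 at a mean of at least 5 FPKM and 0.11 with no filter. With a pseudocount of 0.1 or 0.01, 2 were higher and 1 was lower. Adamts4, which cleaves the proteoglycan aggrecan, was at 5.71 FPKM in WT and listed at 0 in KO, and it too was not counted under the stricter filters. The highest by the mean of the libraries were Adam15 (131 FPKM in WT and 142 in KO), Adam9 (33.9 and 58.5) and Adam19 (50.6 and 28.6), and none of these passed 3-fold.

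Of 15 activators, inhibitors and partners of MMPs, 12 were tested, with a median difference of -0.08, and Lcn2 was the 1 gene higher at 3-fold, which did not reach 1 FPKM in both libraries. Plau, a plasminogen activator, was at 115 and 121 FPKM, and its receptor Plaur at 182 and 275. Cd44, a surface receptor that can hold Mmp9, was at 191 and 181 FPKM. Reck, a membrane-anchored MMP inhibitor, was listed at 0 in both.

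Matrix proteins that these enzymes cut were compared next. Of 23 genes, 20 were tested, 1 was higher and 2 were lower at 3-fold. The median difference was 0.41, but -0.02 among those with a mean of at least 5 FPKM, and the summed level was 447 FPKM in WT against 299 in KO. Spp1, the matricellular protein osteopontin, was at 103 FPKM in WT against 8.41 in KO, 12.2-fold lower, and Thbs1, thrombospondin 1, was at 37.8 and 11.0, 3.44-fold lower. Col1a2 was at 0.0948 FPKM in WT against 4.75 in KO, and this call was lost under both stricter filters. Fn1, fibronectin, was at 198 and 117 FPKM, and Dcn, the collagen-binding proteoglycan decorin, at 35.0 and 62.3. No collagen of the list exceeded 10.4 FPKM in either library.

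**Figure D4:**
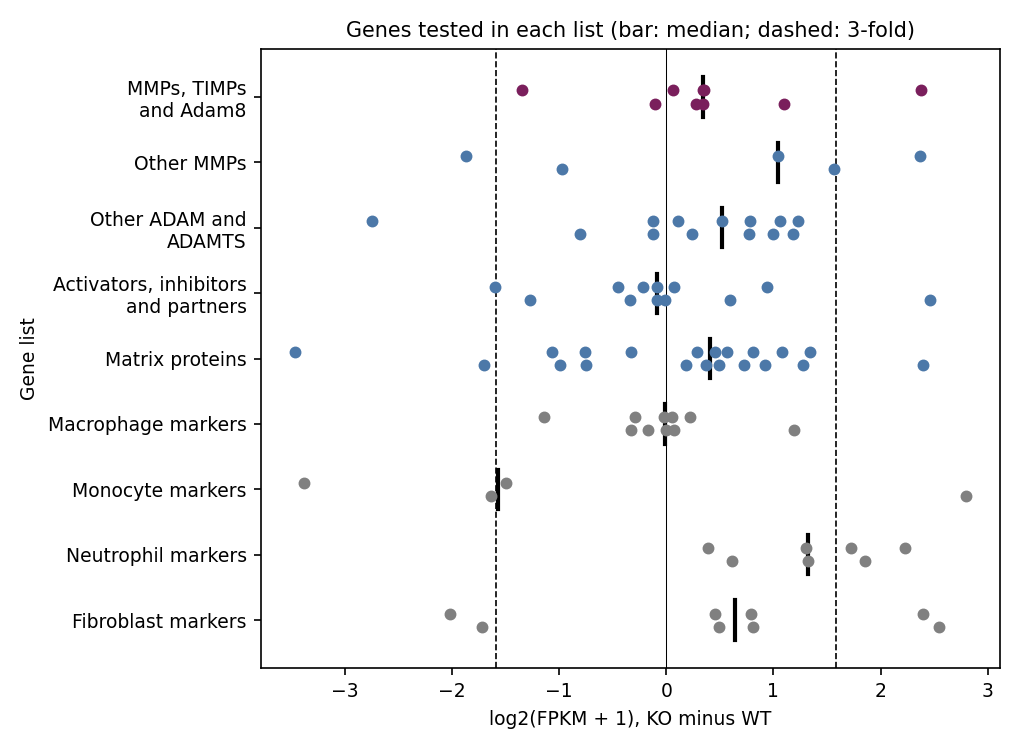
Difference between the libraries, log2(FPKM + 1) KO minus WT, for the genes tested in each list, with 1 point per gene, a black bar at the list's median and dashed lines at 3-fold. The MMP, TIMP and Adam8 genes have a median of 0.34, the macrophage markers have a median of -0.01 with Mertk at 1.19 and Fcgr1 at -1.14, and all 7 neutrophil markers are above 0.

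Markers of other cells that make MMPs and TIMPs are given here as measured. Fibroblast markers, of cells that make Timp1, Timp3 and Mmp14, summed to 55.2 FPKM in WT against 95.6 in KO. Of 8 tested, 2 were higher and 2 were lower at 3-fold, and under either stricter filter 0 were higher and 0 lower. Monocyte markers summed to 42.5 and 26.7 FPKM, and the 4 genes went both ways at 3-fold. Plac8 was higher, at 1.58 and 17.0 FPKM, Ly6c2 (9.39 in WT) and Chil3 (2.10 in WT) were lower and listed at 0 in KO, and Ccr2, the receptor that brings monocytes into tissue, was at 29.4 and 9.78 and not called. Their median difference was -1.57, but 0.65 under either stricter filter, where 1 was higher and 0 were lower. Mesothelial markers were at 0 in both libraries except Upk3b (0 in WT and 7.84 FPKM in KO). Adipocyte markers summed to 22.6 and 21.7 FPKM and endothelial markers to 18.7 and 16.1, each with 0 higher and 1 lower, and the adipocyte genes Adipoq and Plin1 were listed at 0 in both. Eosinophil markers summed to 6.50 and 33.1 FPKM, and both of the 2 tested were higher at 3-fold, Ccr3 (listed at 0 against 7.45 FPKM) and Alox15 (6.50 against 25.7), with Siglecf, Prg2 and Epx at 0 in both. Mast cell, T cell, B cell and dendritic cell markers summed to at most 9.54 FPKM in either library. Among them the B cell gene Cd79b (0 in WT and 5.52 FPKM in KO) and the dendritic cell gene Zbtb46 (0 and 9.45) were higher at 3-fold, and 0 were lower. Under either stricter filter the mesothelial, adipocyte, endothelial, B cell and dendritic cell lists had 0 higher and 0 lower, and the eosinophil list 1 higher. The part of these cells in the levels of Timp1, Timp3, Mmp12, Mmp13 and Mmp14 was not tested.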

How the data were processed

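RNA sequencing of sorted ATM gave 1 WT and 1 KO library. The authors deposited 1 table of FPKM values, and the submitters' processing notes name mm9, CASAVA 1.8.2, TopHat2 2.0.9 and Cufflinks 2.2.1; the annotation, filters and pooling are not given in the sources used here. FPKM values are already divided by length and library size, so no count model was used. The table's mutant column was assigned to KO, the only library that was not WT.

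Of 20749 rows, 401 repeated in full were dropped, and 18 with other values for an identifier were summed. Symbols matched 98.5% of 20330 identifiers (GENCODE M21). Differences used a pseudocount of 1. The step of 1 fragment was 0.170 FPKM x kb in WT (19 genes with a single annotated transcript) and 0.134 in KO (20 genes), with the median length of a gene's coding transcripts. Python 3.11.15, pandas 2.3.3 and numpy 2.4.6 were used. The calls were tried on simulated data with planted changes and counting noise only, so that check does not cover the wider spread between real libraries. The 10 genes and the lists were chosen with earlier results of these data known. Every one of the 10 was named. From other lists, some but not all of the genes past 3-fold or among the 3 highest were named, with others singled out after their values were seen. Alternatives varied pseudocount, filter, scaling, threshold and repeated identifiers. One gene of the list of activators, inhibitors and partners is not reported here.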

Additional observations from a re-analysis of the deposited data

How the results depend on the processing

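No paired analysis was possible because a single library stands for each genotype, and leaving one out leaves no comparison. Of the 10 genes, Timp1, the 1 past 3-fold, failed both stricter filters, so 0 were higher when 1 FPKM was required in both libraries, and 0 when a mean of 5 FPKM was required. With a 2-fold threshold 2 were higher and 1 was lower. Genes higher and lower over all tested numbered 429 and 447 under the former filter and 598 and 646 under the latter, where fewer genes were tested, and 2380 and 2314 at 2-fold. Without Adam8 and Timp2 the ratio of proteases to TIMPs was 77.1 in WT and 21.8 in KO, both large since Timp1 and Timp3 are low. The WT value rests on Timp3 alone, as Timp1 was listed at 0 there, so the gap between the libraries is not read as a difference. Over 9 settings, a ratio without a pseudocount that was added after seeing the data among them, the difference of Mmp12 lay between -1.39 and -1.30 and that of Mmp13 between 1.10 and 1.20. The difference of Timp1, 2.38 with a pseudocount of 1, was 5.43 with 0.1 and 8.72 with 0.01, since its WT value is 0. With either smaller pseudocount, 3 further MMP and TIMP genes and 3 matrix proteins were higher at 3-fold, and their counts lower did not change. Over all genes tested, 1903 were higher and 1849 lower with a pseudocount of 0.1. Scaling to the same sum shifted the median over all genes tested by 0.04. Depth limits Timp1 and Timp3, at under 40 estimated fragments.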
